A study of Drosophila melanogaster with 34 samples.

Results

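The genes described here are 6 members of the Hedgehog pathway and of the anterior-posterior compartment system of the *Drosophila* wing disc: *hh*, *ptc*, *smo*, *ci*, *en* and *inv*. They were chosen by symbol, with earlier results of these data known, and are 6 of the 17641 symbols listed in the expression files. RNA was sequenced from whole wing discs of 34 samples in 9 groups. The *scrib* mutant tumors were discs of genotype scrib-/- FRT82B, from a stock written scrib1 FRT82B/TM6B, taken at 4, 5, 6, 8, 10, 12 and 14 days after egg laying (AEL). Control discs had the genotype FRT82B (strain BL2035) and were taken at 4 and 5 days AEL, so the FRT82B site was common to both. All larvae were reared at 25 degrees. The 4-day control and the 6-day tumor groups had 3 samples each and the other 7 groups had 4 each. Control larvae pupariate after these ages, so tumors of 6 days and older have no control of their own age and were set against the 5-day control discs. *scrib* (scribble) encodes a scaffold protein of epithelial apical-basal polarity. The mutation was carried by the whole larva and was not limited to the disc.

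The wing disc is divided into a posterior and an anterior compartment. Posterior cells make the homeodomain proteins Engrailed and Invected, encoded by the neighboring genes *en* and *inv*, which keep *hh* on and *ci* off. Anterior cells make Cubitus interruptus (*ci*), the transcription factor at the end of the pathway. Hedgehog spreads from posterior cells into the anterior compartment, binds its receptor Patched (*ptc*) and so releases Smoothened (*smo*) from inhibition. Full-length Ci then activates targets near the boundary, among them *ptc* itself, *dpp* and *kn*, whereas without signal a cleaved form of Ci represses *hh* and *dpp*.

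In the BDGP6 assembly *hh* (FBgn0004644) lies on chromosome 3R at 23128169-23141906, minus strand. The *ptc* gene (FBgn0003892) lies on 2R at 8649649-8665223, plus strand, and *smo* (FBgn0003444) on 2L at 277582-282167, plus strand. The *ci* gene (FBgn0004859) lies on chromosome 4 at 47710-57041, minus strand. The paralogs *inv* (FBgn0001269; 11474465-11509695, plus strand) and *en* (FBgn0000577; 11524006-11528210, minus strand) are adjacent on 2R, with 14310 bases between them. Exons of *smo* share 498 bases with the opposite-strand gene CG11601 and 587 bases with the opposite-strand gene CG17078. Per the methods featureCounts was run at its default setting and no use of strand was stated. How reads in these shared bases were assigned was not examined, so the *smo* count there is uncertain.

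Each library had between 18437402 and 26619424 reads on genes, and 3 reads were worth 0.116 to 0.166 CPM (read counts scaled to library size), far below every value of the 6 members. Nothing beyond replicate numbers ties the samples to separate vials or animals in the labels, so p-values measure the spread between these samples. The RNA of *scrib* itself was listed at 521 to 893 CPM in tumors and 387 to 490 CPM in control discs. It was higher in every tumor than in every control disc, so the genotype labels cannot be checked by a loss of this RNA. Genes that define the wing disc were present in every library, but 10 of 14 were lower in tumors than in control discs at 4 days and 12 of 14 were lower at 5 days (28.6% and 32.5% of all genes tested). Libraries differed in RNA of other tissues. The fat body list (6 genes) summed to 2.60 to 2696 CPM in tumors and to 104 to 4033 CPM in control discs, and 6 gut genes summed to 0 to 1688 CPM in tumors and to 0.561 to 2263 CPM in control discs. For gut, 8 libraries were above 500 CPM, 3 of them 4-day tumors (1117 to 1688 CPM), 2 of them 5-day tumors, 1 a 6-day tumor, 1 a 10-day tumor (557.6 CPM) and 1 a 4-day control (2263 CPM). The tests below were also run without these 8 libraries, a choice made after seeing the data, and the value is given wherever a call changed. Of the 4-day tumors only the fourth replicate was then left, so values at 4 days without these libraries rest on it.

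The 3 posterior genes *hh*, *en* and *inv* were low in young *scrib* mutant tumors and rose as the tumors aged, while *ci* was higher than in control discs at 4, 5 and 6 days. At 4 days the posterior genes stood at 34.1% to 38.8% of the control level, and at 5 days at 17.7% to 27.5%. From 8 days on all 3 were higher than at 6 days. By 14 days *hh* and *inv* had reached 82.0% and 77.7% of the 5-day control mean, and *en* had reached 41.3%. Of the 6 members, 4 were lower and 1 was higher in tumors at 4 days, where 61% of all 9637 genes tested were called (28.6% lower and 32.4% higher). At 5 days 5 were lower and 1 was higher, against 71.5% of all genes called (32.5% lower and 39% higher). A call is a Benjamini-Hochberg adjusted p under 0.05 from limma on log2(CPM + 1), and differences below are on that scale, which understates those of genes at a few CPM or less. In whole discs fewer posterior cells and less RNA per posterior cell cannot be told apart.

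**Figure D1:**
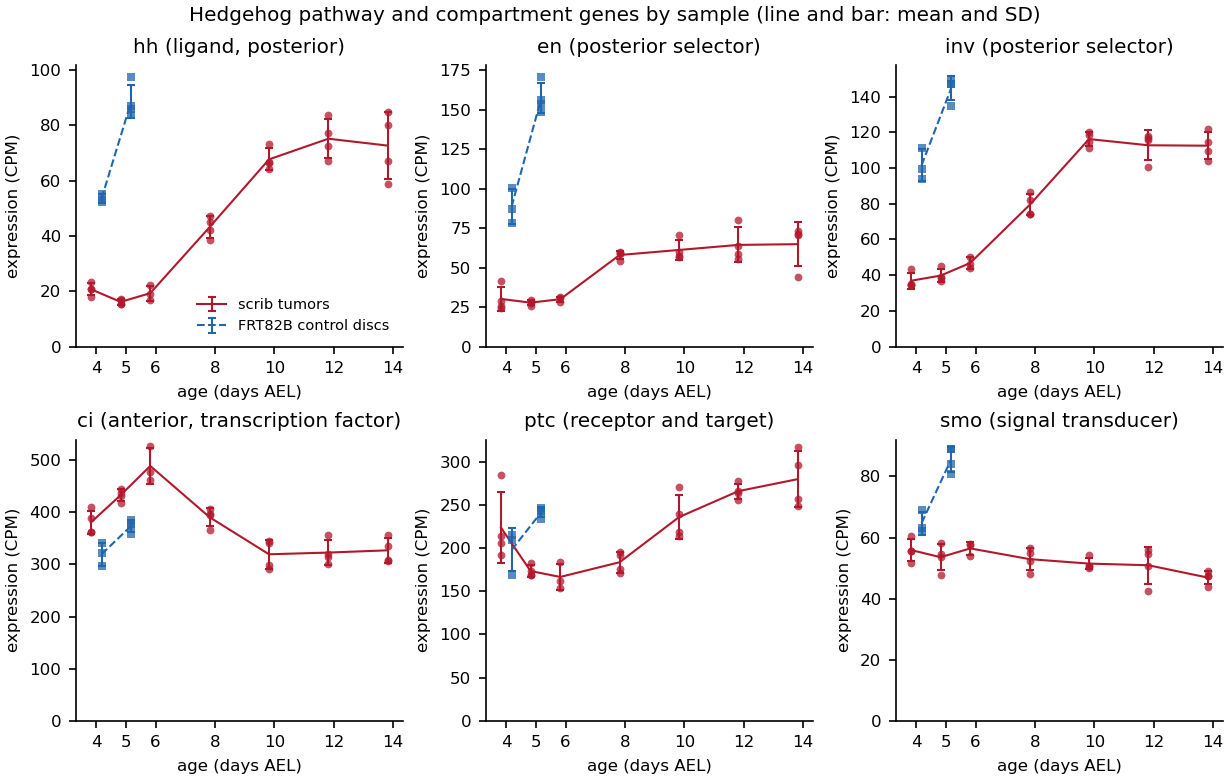
Expression in CPM (vertical axis, starting at 0) of the 6 genes against age in days AEL. Each point is 1 library, *scrib* mutant tumors in red and FRT82B control discs in blue, and lines with bars join the group means and give their SD. The 4- to 6-day tumors lie below every control disc for *hh*, *en* and *inv*, and at 8 days all 3 genes are higher than at 6 days.

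The ligand gene *hh* had 20.9, 20.7, 18.1 and 23.3 CPM in the 4-day tumors, against 55.3, 53.0 and 52.4 CPM in the 4-day control discs. At 5 days it had 15.3, 17.3, 15.3 and 16.8 CPM in tumors, against 85.9, 83.9, 87.2 and 97.6 CPM in control discs. No tumor came near a control disc at either age, and the gap was wider at 5 days. The difference was -1.33 ± 0.10 (log2, SE; limma, adjusted p = 1.51e-12) at 4 days and -2.39 ± 0.09 (limma, adjusted p = 9.13e-20) at 5 days. The 6-day tumors stayed at this low level, with 16.9, 22.2 and 18.8 CPM. At 8 days *hh* had 47.4, 38.4, 44.9 and 42.1 CPM, all above the 6-day tumors and below the 4-day control discs. It had 66.3, 64.3, 73.4 and 66.8 CPM at 10 days, all above the 4-day and below the 5-day control discs. At 12 days the values were 67.1, 77.2, 83.8 and 72.5 CPM, and at 14 days 84.9, 58.7, 80.1 and 66.9 CPM. The 14-day tumors were the most spread of the tumor groups in CPM, and 1 of them exceeded the lowest 5-day control disc.

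The selector gene *en* had 28.9, 24.5, 25.8 and 41.5 CPM in the 4-day tumors, against 100.2, 87.1 and 78.3 CPM in the 4-day control discs. In the 5-day tumors it had 27.4, 28.3, 25.9 and 29.8 CPM, against 156, 149, 153 and 171 CPM in the 5-day control discs. The groups were far apart at both ages, although the fourth replicate of the 4-day tumors was higher than the others. The difference was -1.54 ± 0.15 (log2, SE; limma, adjusted p = 1.81e-10) at 4 days and -2.46 ± 0.14 (limma, adjusted p = 3.51e-16) at 5 days. Group means were 30.2, 27.8, 30.0, 58.0, 61.2, 64.4 and 64.9 CPM in tumors of 4, 5, 6, 8, 10, 12 and 14 days, against 88.5 and 157 CPM in control discs of 4 and 5 days. Thus *en* had a single step between 6 and 8 days, and neighboring tumor groups from 8 to 14 days overlapped. A 12-day tumor at 80.3 CPM was the only tumor library that exceeded the lowest 4-day control disc.

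Its paralog *inv* had 34.2, 35.1, 34.6 and 43.6 CPM in the 4-day tumors, against 111, 99.7 and 93.7 CPM in the 4-day control discs. In the 5-day tumors it had 38.7, 38.3, 37.0 and 45.0 CPM, against 147, 135, 147 and 150.0 CPM in the 5-day control discs. Here too no tumor overlapped the control discs. The difference was -1.44 ± 0.08 (log2, SE; limma, adjusted p = 7.24e-16) at 4 days and -1.84 ± 0.07 (limma, adjusted p = 1.26e-19) at 5 days. Unlike *en*, *inv* had a second step between 8 and 10 days: its means were 46.8 CPM at 6 days, 79.3 CPM at 8 days, 116 CPM at 10 days, 113 CPM at 12 days and 112 CPM at 14 days. The 12- and 14-day tumors overlapped the 4-day control discs and stayed below the 5-day ones, whose mean was 145 CPM.

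The anterior gene *ci* moved the other way in the young tumors. It had 388, 363, 409 and 362 CPM in the 4-day tumors, against 322, 340.5 and 296 CPM in the 4-day control discs. At 5 days it had 445, 438, 418 and 431 CPM in tumors, against 374, 378, 385 and 359 CPM in control discs. The groups did not overlap, but the differences were small, at 0.25 ± 0.07 (log2, SE; limma, adjusted p = 0.00144) at 4 days and 0.21 ± 0.06 (limma, adjusted p = 0.00305) at 5 days. With scaling by library size alone neither passed, at 0.13 (limma, adjusted p = 0.0863) and 0.12 (limma, adjusted p = 0.0799). Without the 8 libraries rich in gut RNA, which left only the fourth replicate of the 4-day tumors, the 4-day difference was 0.23. The level was highest in the 6-day tumors, at 528, 478 and 462 CPM, and was 391 ± 17 CPM (SD, n = 4) at 8 days. At 10 days it was 319.6 ± 28.1 CPM, at 12 days 323 ± 23 CPM and at 14 days 327 ± 24 CPM (SD, n = 4 each), all 12 libraries being below the 5-day control discs.

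The receptor gene *ptc*, a target of its own pathway, did not follow the posterior genes at 4 days. It had 214, 206, 192 and 284 CPM in the 4-day tumors, against 215, 209 and 169 CPM in the 4-day control discs. The groups overlapped, and the difference of 0.17 (95% interval -0.04 to 0.37) did not pass (limma, adjusted p = 0.15). It was 0.05 without 4-day tumor replicate 4 and 0.06 without 4-day control replicate 3 (limma, adjusted p = 0.657 for both), and 0.05 with library size alone. The tumor at 284 CPM was the fourth replicate, the only 4-day tumor with little gut RNA (99.2 CPM, against 1117 to 1688 CPM in the other 3). Without the 8 gut-rich libraries this 1 tumor is set against 2 control discs, its spread is taken from the other groups, and *ptc* was higher by 0.57 (limma, adjusted p = 0.00225). At 5 days *ptc* had 173, 169, 169 and 183 CPM in tumors, against 233, 246, 243 and 243 CPM in control discs, with no overlap. The difference was -0.48 ± 0.09 (log2, SE; limma, adjusted p = 4.75e-05). Later means were 167, 184, 236, 266 and 279.9 CPM in tumors of 6, 8, 10, 12 and 14 days, so that *ptc* was lowest at 6 days and highest at 14 days.

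The gene for the transducer *smo* was the steadiest of the 6 across tumor ages, with group means between 46.9 CPM at 14 days and 56.4 CPM at 6 days. It had 60.6, 55.7, 55.7 and 51.6 CPM in the 4-day tumors, against 62.0, 63.1 and 69.1 CPM in the 4-day control discs. In the 5-day tumors it had 53.6, 54.5, 47.8 and 58.3 CPM, against 80.7, 89.1, 84.0 and 88.8 CPM in the 5-day control discs. The groups nearly touched at 4 days and were well apart at 5 days. The difference was -0.21 ± 0.07 (log2, SE; limma, adjusted p = 0.0163) at 4 days and -0.67 ± 0.07 (limma, adjusted p = 6.05e-10) at 5 days. The 4-day call was lost without 4-day control replicate 3 (-0.16; limma, adjusted p = 0.0989) and without 4-day tumor replicate 4 (-0.17; limma, adjusted p = 0.0587). Of the opposite-strand neighbors that share exon bases with *smo*, CG11601 was higher in tumors at 5 days (13.3 ± 0.4 against 7.58 ± 0.28 CPM; SD, n = 4 each) and CG17078 was lower (70.3 ± 2.1 against 85.4 ± 1.8 CPM; SD, n = 4 each), and their share in the *smo* reads was not tested.

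Other marker lists moved with these differences. Summed over 14 genes, the wing disc list was at 1718 to 1991 CPM in the 4-day tumors, against 2485 to 2914 CPM in the 4-day control discs, and at 1926 to 2139 CPM in the 5-day tumors, against 3697 to 3895 CPM in the 5-day control discs. Muscle genes (5 genes) summed to 1066 to 1256 CPM in the 4-day tumors, against 273 to 469 CPM in the 4-day control discs. At 5 days the muscle sum was 400.1 to 663 CPM in tumors, against 48.8 to 72.0 CPM in control discs. Tracheal genes (4 genes) summed to 3539 to 6504 CPM over all tumors, against 1331 to 1765 CPM in control discs, and hemocyte genes (5 genes) to 40.6 to 315 CPM, against 20.1 to 65.8 CPM. Of the 4 tracheal genes 3 were called higher and 1 lower at both 4 and 5 days. Of all genes, 32.4% and 39% were called higher at these ages and 28.6% and 32.5% lower. Most of the tracheal sum came from *verm*, *serp* and *Gasp* (medians of 2850, 1250 and 800.5 CPM over all libraries), and *trh* had 37.0 CPM. None of the muscle, tracheal or hemocyte genes was at 0 in any library, whereas each gut gene was at 0 in 1 to 16 of the 34 libraries. The part of these lists in the lower posterior genes was not tested. Without the 8 gut-rich libraries only the fourth replicate of the 4-day tumors was left. The 4-day differences were then -1.17 for *hh*, -1.08 for *en*, -1.21 for *inv* and 0.23 for *ci* (log2). That replicate had the highest *en* and *inv* of its group (41.5 and 43.6 CPM), so these values rest on a library apart from the others.

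Control discs themselves changed between 4 and 5 days, and all 6 members were higher at 5 days, where 53.8% of all genes were called (26.6% higher and 27.2% lower). The difference, 5 days minus 4 days, was 0.83 for *en*, 0.71 for *hh*, 0.51 for *inv*, 0.40 for *smo*, 0.29 for *ptc* and 0.23 for *ci* (log2; limma, adjusted p = 6.8e-07 to 0.0149). The *ptc* call was lost without 4-day control replicate 3 (0.19; limma, adjusted p = 0.16). In tumors over the same day *hh* (-0.34) and *ptc* (-0.35) were lower at 5 days, *ci* (0.19) was higher, and *en* (-0.08), *inv* (0.11) and *smo* (-0.06) did not pass (limma, adjusted p = 0.00601 to 0.0238 for the calls; 23.9% of all genes were called). Leaving out 1 library ended the *ci* call in 4 cases (4-day tumor replicate 2 or 4, 5-day tumor replicate 1 or 2), with differences of 0.16 to 0.18, and without 4-day tumor replicate 4 *inv* passed (0.19; limma, adjusted p = 0.0441). Without the gut-rich libraries, which left only the fourth replicate of the 4-day tumors, the difference was -0.43 for *hh* and 0.26 for *ci*. These are no smaller than with all libraries.

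The change between these ages differed by genotype for 5 of the 6 genes, tested as the change in tumors minus that in control discs, with 38.7% of all genes called. It was -1.05 for *hh*, -0.91 for *en*, -0.64 for *ptc*, -0.46 for *smo* and -0.40 for *inv* (log2; limma, adjusted p = 3.96e-07 to 0.00379). Without the gut-rich libraries, which left only the fourth replicate of the 4-day tumors, that of *smo* was -0.26. For *ci* the value was -0.04, with a 95% interval of -0.23 to 0.14 (limma, adjusted p = 0.753). Thus the gap at 5 days was wider than at 4 days for the posterior genes, and for *en* and *inv* it widened while the tumors themselves had no change that passed.

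Over the 27 tumors all 6 genes had a slope on age that passed, as did 77.2% of 9408 genes tested in tumors, 4 of the 6 with a higher and 2 with a lower level at later ages (36.4% and 40.8% of all genes). The slope was 0.23 ± 0.02 per day for *hh*, 0.18 ± 0.01 for *inv*, 0.13 ± 0.02 for *en* and 0.06 ± 0.01 for *ptc* (log2, SE; limma, adjusted p = 4.73e-12 to 2.59e-05). It was -0.05 ± 0.01 per day for *ci* and -0.02 ± 0.01 for *smo* (limma, adjusted p = 2.65e-05 and 0.00081). A straight line hides the steps that the group means show, so neighboring ages were also compared. Between 6 and 8 days *hh* was higher by 1.13, *en* by 0.93 and *inv* by 0.75, and *ci* fell by 0.32 (log2; limma, adjusted p = 2.07e-09 to 0.000464), in a step with 26.4% of all genes called. Between 8 and 10 days *hh* was higher by 0.64, *inv* by 0.55 and *ptc* by 0.36, and *ci* fell by 0.29 (limma, adjusted p = 4.03e-06 to 0.00591; 23.6% of genes called). In that step *en* differed by 0.07, with a 95% interval of -0.20 to 0.35 (limma, adjusted p = 0.756).

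Markers of other discs and tissues changed over the same ages. Both *Ubx* and *Scr*, which mark haltere and leg segments, were called higher at 8 than at 6 days (26.4% of all genes called in either direction). Over all libraries *Ubx* had a median of 16.0 CPM and *Scr* 1.33 CPM, so their sum is mostly *Ubx*. The sum had a median of 6.83, 16.5 and 31.5 CPM in tumors of 6, 8 and 10 days, against 17.7 and 20.7 CPM in control discs of 4 and 5 days. The eye-antennal list (4 genes, almost all of it from *so* and *eya*) had a median sum of 17.8, 57.1, 112, 168 and 155 CPM in tumors of 4, 6, 8, 10 and 14 days. In control discs of 4 and 5 days its median sum was 36.8 and 87.0 CPM. Of its 3 genes tested, 2 rose and 1 fell with tumor age (36.4% and 40.8% of all genes). The highest values of *ey* and *toy* were 0.575 and 1.63 CPM. The muscle list had a median sum of 1225, 307, 195, 140.3 and 179 CPM in tumors of 4, 6, 8, 10 and 14 days, and the gut list 1131, 83.8, 0.704, 0.245 and 0.149 CPM. The fat body list had no such order, with medians of 417, 204, 872, 57.7 and 16.6 CPM. Of the 14 wing disc genes 10 rose and 1 fell with tumor age. The part of these lists in the rise of *hh*, *en* and *inv* was not tested. The slopes of all 6 members passed without the 8 gut-rich libraries (*hh* 0.22, *inv* 0.16, *en* 0.10, *ptc* 0.07, *ci* -0.05 and *smo* -0.02 per day). In that fit 2994 of 9408 genes were called higher and 3346 lower at later ages.

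In the remaining steps differences were small. No member was called between 5 and 6 days, between 10 and 12 days or between 12 and 14 days, where 8.45%, 5.59% and 16.4% of all genes were called. Those shares rest in part on single libraries: 814 genes were called between 5 and 6 days, but 270 higher and 220 lower without 6-day tumor replicate 2. Likewise 539 were called between 10 and 12 days, but 146 higher and 104 lower without 10-day tumor replicate 2, and 1576 between 12 and 14 days, but 326 higher and 640 lower without 14-day tumor replicate 4. edgeR also called none of the 6 in these steps. At an unadjusted p under 0.05 limma gave *hh*, *ci* and *inv* between 5 and 6 days, and none in the later steps. The 95% interval between 5 and 6 days was 0.07 to 0.40 for *inv* and 0.04 to 0.31 for *ci*, whose libraries did not overlap (462 to 528 CPM at 6 days, against 418 to 445 CPM at 5 days). A fit with a replicate block called *inv* higher in that step (0.26; limma, adjusted p = 0.0271). Without 5-day tumor replicate 4 *inv* was higher at 6 than at 5 days by 0.29 (limma, adjusted p = 0.021), and without 12-day tumor replicate 1 *smo* was lower at 14 than at 12 days (-0.19; limma, adjusted p = 0.0326). The rise of *hh* and *inv* that passed thus lay between 6 and 10 days, and that of *en* between 6 and 8 days.

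Set against the same 5-day control discs, tumors of 6 days and older gave comparisons that share their control samples and are therefore listed side by side. For *hh* the difference was -2.15, -1.02, -0.38, -0.24 and -0.30 at 6, 8, 10, 12 and 14 days. For *inv* it was -1.61, -0.86, -0.31, -0.36 and -0.36, and for *en* -2.35, -1.42, -1.35, -1.29 and -1.29 (log2; limma, adjusted p at or below 0.0268 for all 15 values). The call of *hh* was lost without 1 library in 3 cases at 12 days (5-day control replicate 4, 12-day tumor replicate 1 or 4; -0.19 to -0.22) and in 1 case at 14 days (tumor replicate 2; -0.20). At 14 days *en* was therefore the posterior gene farthest below the control discs, although those discs were 9 days younger.

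The other 3 genes crossed or kept away from the control level in the same comparisons. For *ci* the difference was 0.38, 0.06, -0.23, -0.21 and -0.20 at 6, 8, 10, 12 and 14 days, the 8-day value not passing (limma, adjusted p = 0.399). For *smo* it was -0.59, -0.69, -0.72, -0.75 and -0.86, all passing. For *ptc* it was -0.54, -0.39, -0.04, 0.14 and 0.21, of which the values at 10 and 12 days did not pass (limma, adjusted p = 0.74 and 0.193) and the value at 14 days barely did (limma, adjusted p = 0.0499). That *ptc* call was lost under 11 other settings, including both other scalings, edgeR and leaving out any 1 of the 5-day control discs. In these 5 comparisons 62%, 62.7%, 65.3%, 67.6% and 71.8% of all genes were called, while 6, 5, 5, 5 and 6 of the 6 members were.

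**Figure D2:**
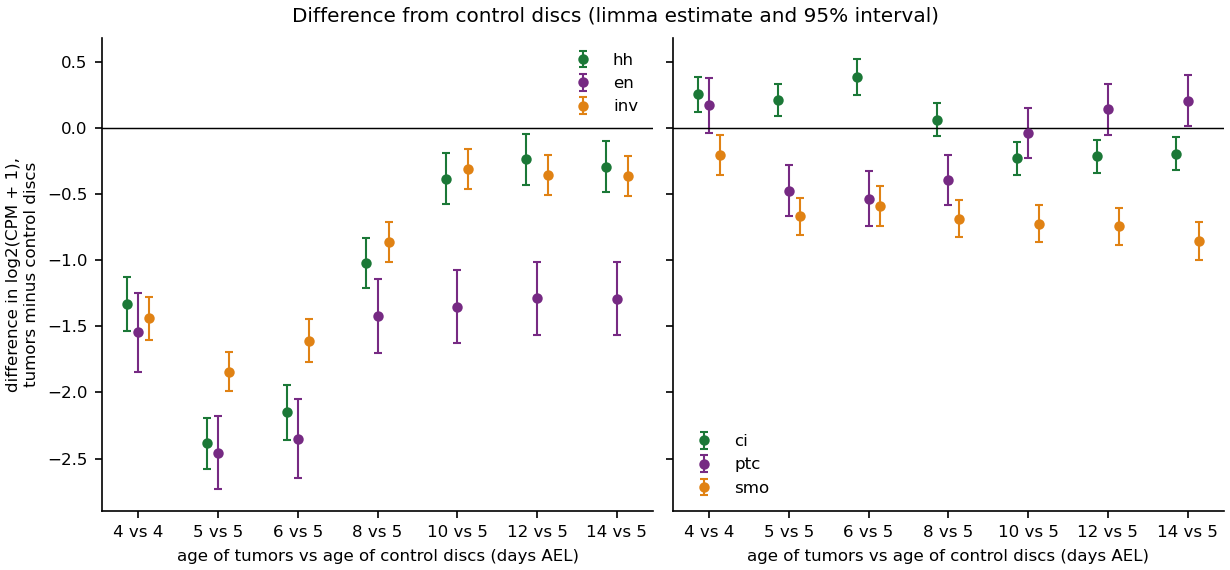
Difference from control discs in log2(CPM + 1) (vertical axis) for each tumor age (horizontal axis, with the age of the control discs), as limma estimates with 95% intervals, posterior genes at left and *ci*, *ptc* and *smo* at right. The *hh* and *inv* values approach 0 by 10 days, *en* stays near -1.3 from 10 days on and *smo* stays below 0 at every age.

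Ratios within a library do not depend on its scaling. Because the genes differ in length, only changes of a ratio between groups are read from them. The ratio of *hh* to *ci* was 0.055, 0.037, 0.040, 0.111, 0.213, 0.233 and 0.223 in tumors of 4, 5, 6, 8, 10, 12 and 14 days, against 0.168 and 0.237 in control discs of 4 and 5 days. All tumors of 4 to 8 days were below every control disc, and the tumors of 10 to 14 days (0.188 to 0.261) overlapped the 5-day control discs (0.222 to 0.272). The ratio of *inv* to *ci* behaved alike, at 0.092 in 5-day and 0.345 in 14-day tumors, against 0.387 in 5-day control discs. The ratio of *en* to *ci* did not, reaching 0.198 ± 0.038 in 14-day tumors (SD, n = 4), against 0.421 ± 0.038 in 5-day control discs (SD, n = 4), and every tumor library of any age was below every control disc.

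The ratio of *inv* to *en* separated tumors from control discs at 5 days, with 1.41, 1.36, 1.43 and 1.51 in tumors and 0.942, 0.907, 0.960 and 0.879 in control discs. At 4 days it was 1.18, 1.43, 1.34 and 1.05 in tumors, against 1.11, 1.14 and 1.20 in control discs, and the groups overlapped. Group means were 1.56, 1.37, 1.91, 1.78 and 1.79 in tumors of 6, 8, 10, 12 and 14 days, and each of these 19 libraries was above every control disc. The spread was widest in the 14-day tumors (1.53 to 2.34), where the library at 2.34 had the lowest *en* of its group (44.3 CPM, against 70.6 to 73.0 CPM in the other 3). The ratio of the receptor and target *ptc* to *ci* was 0.401 in 5-day tumors and 0.854 in 14-day tumors, against 0.646 in 5-day control discs, and all 14-day tumors (0.812 to 0.944) were above all control discs (0.571 to 0.677). These ratios are descriptions and were not tested.

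**Figure D3:**
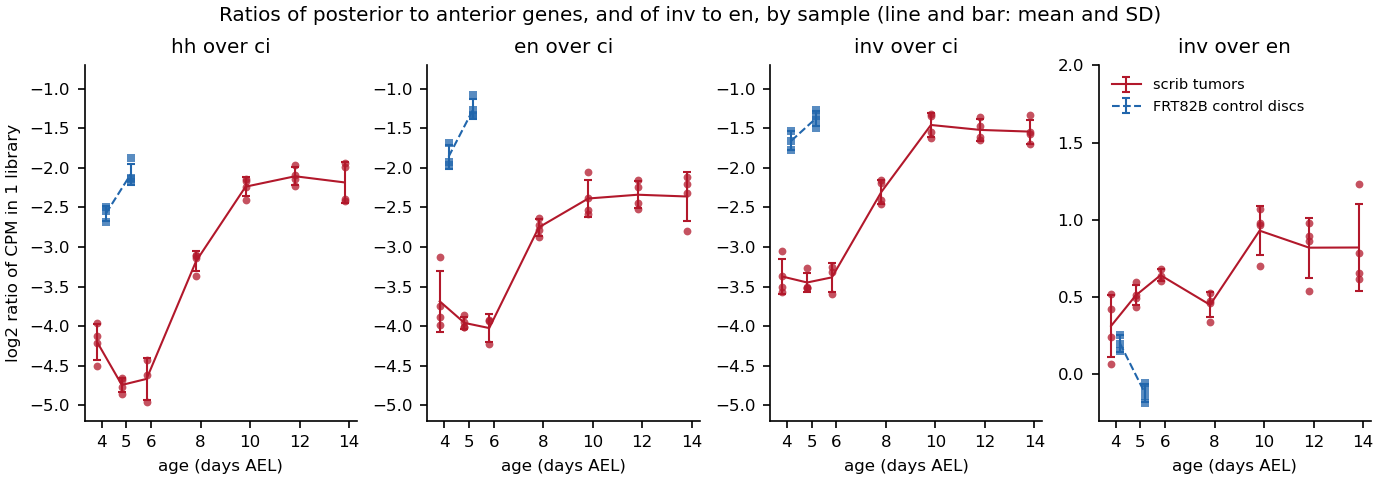
Log2 ratio of CPM within each library (vertical axis) against age in days AEL (horizontal axis) for *hh*, *en* and *inv* over *ci* and for *inv* over *en*. Points are libraries, *scrib* mutant tumors in red and FRT82B control discs in blue, and lines with bars give group means and SD. The *hh* over *ci* ratio of the oldest tumors overlaps that of 5-day control discs, *en* over *ci* stays below it, and *inv* over *en* is above it.

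Per kilobase of exon, the 6 genes ranked differently in the groups. In 5-day tumors the order was *ci* (76.6 ± 2.0), *ptc* (31.4 ± 1.2), *smo* (13.4 ± 1.1), *en* (9.97 ± 0.58), *hh* (6.82 ± 0.44) and *inv* (6.72 ± 0.60 CPM per kb; SD, n = 4). In 5-day control discs it was *ci* (66.2 ± 1.9), *en* (56.3 ± 3.4), *ptc* (43.7 ± 1.0), *hh* (37.4 ± 2.6), *inv* (24.5 ± 1.1) and *smo* (21.4 ± 1.0 CPM per kb; SD, n = 4). In 14-day tumors *ci* (57.9 ± 4.2) and *ptc* (50.7 ± 5.9) again led, followed by *hh* (30.7 ± 5.1), *en* (23.2 ± 4.9), *inv* (19.0 ± 1.3) and *smo* (11.7 ± 0.6 CPM per kb; SD, n = 4). On these exon lengths all 3 posterior genes were below *smo* in 5-day tumors and above it in the other 2 groups, and *hh* and *inv* in 5-day tumors did not differ beyond their spread. The exon length of *smo* includes the 498 and 587 bases shared with CG11601 and CG17078, so its place in these orders is uncertain.

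The target genes of the pathway in the wing disc did not move as a group. *dpp*, which encodes a BMP ligand made along the compartment boundary, was higher in tumors at both ages: it had 181, 166, 173 and 213 CPM in the 4-day tumors, against 87.7, 90.9 and 81.9 CPM in the 4-day control discs. At 5 days it had 186, 185, 183 and 199 CPM in tumors, against 87.9, 87.6, 86.3 and 92.0 CPM in control discs. The groups were far apart, by 1.06 ± 0.06 at 4 days and 1.08 ± 0.06 at 5 days (log2, SE; limma, adjusted p = 2.6e-15 and 1.44e-16). The *dpp* level stayed between 183 and 222 CPM on average at every tumor age. Its slope of 0.02 per day (limma, adjusted p = 0.0166) did not pass without the 4-day tumors (0.01; limma, adjusted p = 0.14) or without the gut-rich libraries (0.00; limma, adjusted p = 0.785).

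*kn*, which encodes the transcription factor Collier that patterns the region next to the boundary, was almost absent from the young tumors. It had 0.356, 0.809, 0.876 and 0.219 CPM in the 4-day tumors, against 12.3, 11.5 and 8.02 CPM in the 4-day control discs. At 5 days it had 0.039, 0.408, 1.10 and 0.368 CPM in tumors, against 54.2, 44.1, 53.2 and 53.1 CPM in control discs. The lowest of these, in the first 5-day replicate, was under the 3-read floor. The difference was -2.90 ± 0.24 at 4 days and -5.18 ± 0.22 at 5 days (log2, SE; limma, adjusted p = 6.7e-12 and 4.66e-19). The added 1 CPM sets the size of these values: the tumor means were 5.33% and 0.936% of the control means, the difference was -4.21 at 4 days with DESeq2 on recovered reads, and it was -6.84 at 5 days with a pseudocount of 0.1. The mean was 0.381 and 0.598 CPM at 6 and 8 days and 2.78, 3.50 and 3.17 CPM at 10, 12 and 14 days, so *kn* stayed far below both control groups at ages when *hh* had returned above its 4-day control level.

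*vn*, which encodes an EGF receptor ligand, and the Iroquois genes *ara* and *caup*, which encode homeodomain proteins, were lower in young tumors and rose with age. *ara* had 9.51, 8.03, 9.87 and 10.2 CPM in the 4-day tumors, against 118, 104 and 86.9 CPM in the 4-day control discs. Its mean was 23.7, 57.0, 148 and 234 CPM in tumors of 5, 6, 8 and 10 days, against 207 CPM in 5-day control discs, with no overlap between neighbors among these tumor ages. At 4 days the difference was -3.31 for *ara*, -2.72 for *caup* and -1.11 for *vn*, and at 5 days -3.08, -2.34 and -1.15 (log2; limma, adjusted p at or below 1.04e-06). The slopes were 0.42, 0.33 and 0.20 per day (limma, adjusted p at or below 1.16e-09). *rdx*, which encodes the adaptor that targets Ci for degradation, had 93.4 ± 6.1 CPM in 4-day tumors and 95.3 ± 3.1 CPM in 4-day control discs (SD, n = 4 and 3) and was called at neither age, although with library size alone it was lower at 4 days (-0.15; limma, adjusted p = 0.0444). It fell with tumor age by 0.06 per day (limma, adjusted p = 2.66e-08).

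**Figure D4:**
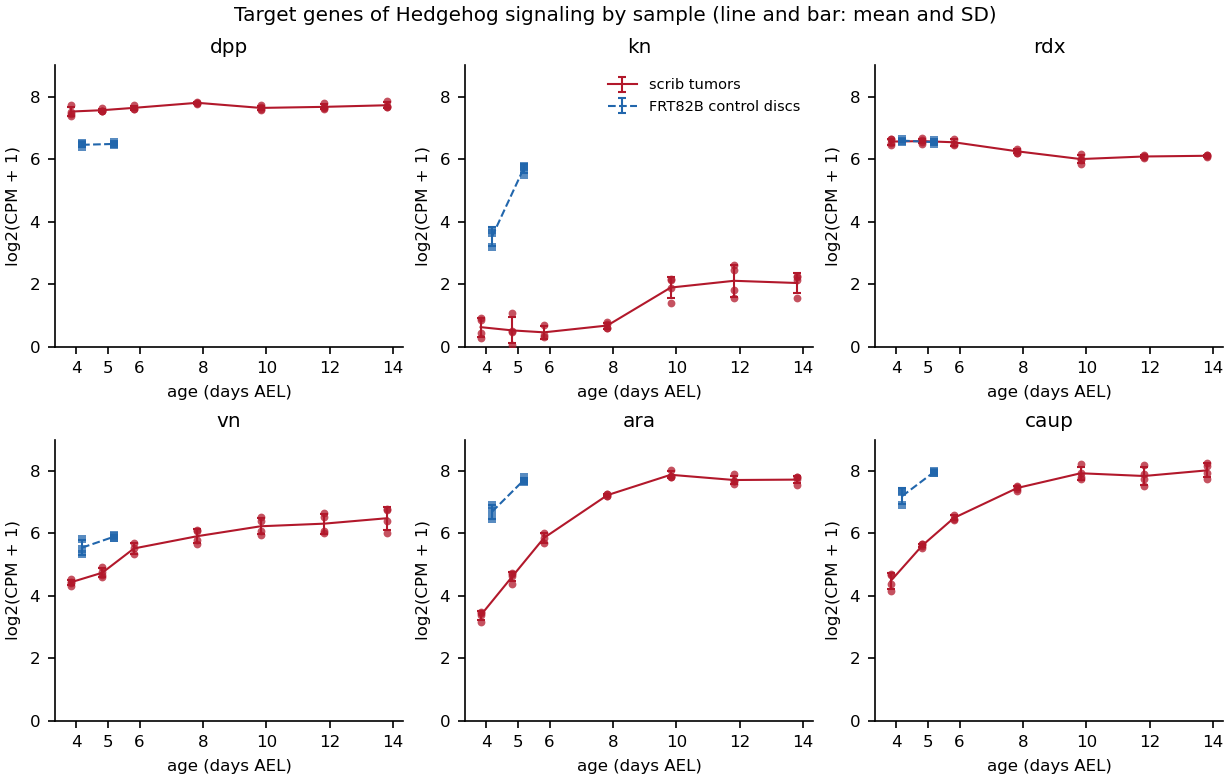
Expression of 6 target genes as log2(CPM + 1) (vertical axis) against age in days AEL (horizontal axis). Points are libraries, *scrib* mutant tumors in red and FRT82B control discs in blue, and lines with bars give group means and SD. *dpp* is higher in every tumor than in every control disc, *kn* is lower, and *ara* and *caup* reach the level of 5-day control discs by 10 days.

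Of 34 further pathway genes, these targets included, tumors had 7 at a higher and 18 at a lower level at 4 days, and 5 at a higher and 24 at a lower level at 5 days. This is 73.5% and 85.3% called, against 61% and 71.5% of all genes, with a median difference of -0.13 and -0.36 (log2), against 0.04 and 0.06 over all genes. Without the gut-rich libraries 11 were called lower at 4 days. In control discs 24 of the 34 were higher at 5 than at 4 days and none was lower (26.6% and 27.2% of all genes). Over tumor age 15 rose and 10 fell (73.5% called, against 77.2% of all genes). Of the 18 cytoplasmic components 9 were lower and 4 higher in tumors at 4 days (28.6% and 32.4% of all genes). At 5 days 12 were lower and 3 higher (32.5% and 39% of all genes).

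Among genes that release or carry the ligand, *shf*, which encodes a secreted factor that helps Hedgehog spread, was lower at 4 and 5 days (-1.73 and -1.25, log2) and had the largest slope of its list (0.15 per day). *dally*, which encodes a glypican that binds the ligand, was higher by 1.19 and 0.62 and had the smallest slope (-0.02 per day). Both co-receptor genes were lower, *ihog* (-1.17 and -1.42) and *boi* (-0.93 and -0.74) at 4 and 5 days. They parted later: *ihog* had 250.2 ± 7.5 CPM in 14-day tumors, against 475 ± 15 CPM in 5-day control discs (SD, n = 4 each), whereas *boi* had 386 ± 13 CPM, against 231 ± 7 CPM. Of the cytoplasmic components, *Gprk2*, a kinase that acts on Smoothened, had the largest slope (0.07 per day) and was higher by 0.34 and 0.32 at 4 and 5 days, and *rdx* had the smallest. *nej*, which encodes the Ci coactivator CBP, was lower at both ages (-0.25 and -0.55). Each of these differences other than those of *rdx* passed (limma, adjusted p at or below 0.0415).

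**Figure D5:**
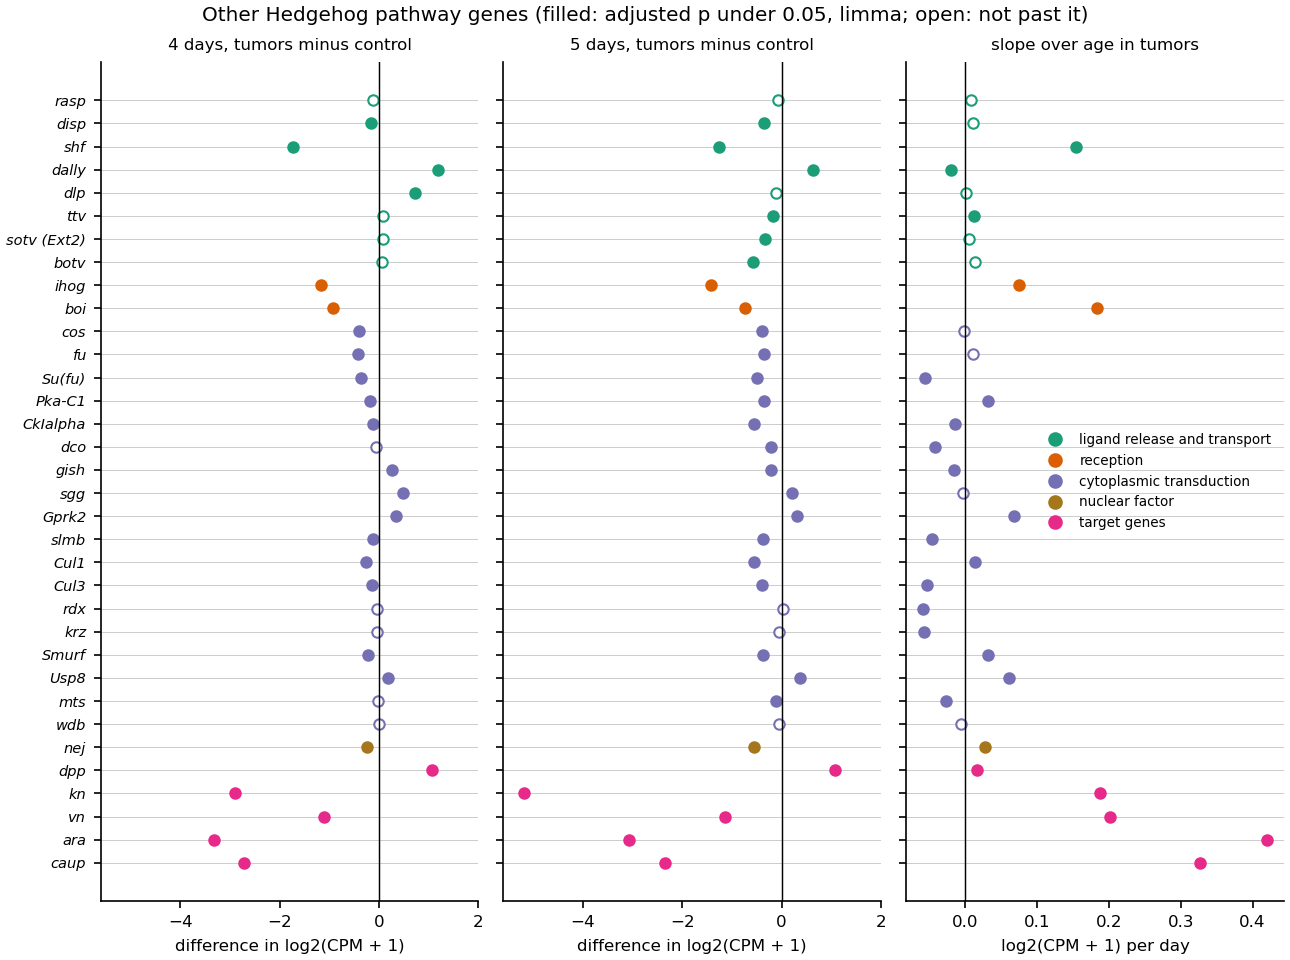
Each line is 1 of 34 other Hedgehog pathway genes, colored by role. The horizontal axes give the difference in log2(CPM + 1) between tumors and control discs at 4 days and at 5 days and the slope per day over tumor age, with filled points for an adjusted p under 0.05 in limma. Cytoplasmic components have a median difference of -0.09 at 4 days and -0.29 at 5 days, whereas *kn*, *ara* and *caup* lie farthest to the left at both ages and have positive slopes.

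Across the 27 tumors the closest pattern to *hh* among the 6824 genes averaging 5 CPM or more was that of *B-H2* (Pearson r = 0.991), a homeobox gene, followed by *Tsp* (0.986) and *Cht5* (0.982). For *inv* it was *robo2* (0.987), *Ire1* (0.985) and *SKIP* (0.984), and for *en* it was *odd* (0.964), *fw* (0.955) and *B-H2* (0.950). Among all 6824 genes *inv* ranked 7th and *en* 76th in likeness to *hh* (0.975 and 0.945). In likeness to *en*, *hh* ranked 4th and *inv* 7th (0.945 and 0.939). In likeness to *inv*, *hh* ranked 16th and its paralog *en* 285th (0.975 and 0.939). For *ci* the closest were *mahe* (0.911), *Ge-1* (0.909) and *Mapmodulin* (0.900), and *hh* stood 34th from the opposite end (-0.819). For *ptc* they were *IP3K2* (0.905), *trn* (0.898) and *Tgi* (0.891), and for *smo* CG8833 (0.818), CG3808 (0.809) and CG1910 (0.803). These correlations are of log2(CPM + 1) over libraries that share their age groups, so genes that change with age in any way correlate, and they are given as a description.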

How the data were processed

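RNA from whole discs was sequenced as paired reads, which per the methods the authors mapped to BDGP6 with STAR, counted with featureCounts and scaled with edgeR. The deposited values are CPM of each library, on library sizes scaled by the authors, so that they sum to 919589 to 1054125 per library. Deposited columns whose sum exceeds that of unscaled CPM were recorded as a score. In every library 100% of values were whole multiples of 1 read (tolerance 0.01), so reads could be recovered. Libraries were grouped by the labels' genotype and age. The deposited scaling was kept. After edgeR's filter on recovered reads, log2(CPM + 1) was fitted with limma 3.58.1 in R 4.3.3, with all 9 groups in the fit for group comparisons and the 27 tumors for the slope, and p-values were Benjamini-Hochberg adjusted over all genes tested. The alternatives were other scalings, a pseudocount of 0.1, no filter, edgeR 4.0.16 and DESeq2 1.42.0 on recovered reads, a replicate block, fits on fewer groups, log2 age, ordinary regression, and leaving out each library. The tests were tested on simulated data. The genes named were the 6 members, for each the 3 genes most like it, the targets, and in each other pathway list the genes with the largest and the smallest slope. CG11601, CG17078 and marker lists were named for their bearing on a result. The members and lists were chosen with earlier results of these data known. Intervals on reads cover counting error only. Gene positions and exon lengths come from the Ensembl annotation of BDGP6, and *sotv* was matched as Ext2. Sequences were not analysed here.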

Additional observations from a re-analysis of the deposited data

Results flagged for a closer look

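Of 126 values tested in groups of 4, 14 had a library far from the other 3, and chance gives about 1 in 20 groups. For single genes these were *smo* in a 10-day tumor (54.3 CPM, others 50.1 to 50.8), *en* in a 14-day tumor (44.3 CPM, others 70.6 to 73.0), *inv* in a 4-day tumor (43.6 CPM, others 34.2 to 35.1) and *inv* in a 12-day tumor (100.4 CPM, others 116 to 118). *dpp* stood apart in a 5-day tumor (199 CPM, others 183 to 186) and a 14-day tumor (230.2 CPM, others 202 to 205). *kn* did so in a 5-day control disc (44.1 CPM, others 53.1 to 54.2), and *ara* in another 5-day control disc (222 CPM, others 199.5 to 203).

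For ratios these were *hh* to *ci* in an 8-day tumor (0.097, others 0.114 to 0.117) and in a 5-day control disc (0.272, others 0.222 to 0.230), and *inv* to *ci* in a 5-day tumor (0.104, others 0.087 to 0.088). The ratio of *ptc* to *ci* stood apart in an 8-day tumor (0.433, others 0.480 to 0.487) and in a 14-day tumor (0.944, others 0.812 to 0.832), and that of *ptc* to *smo* in a 4-day tumor (5.51, others 3.44 to 3.69). That 4-day tumor is the fourth replicate, also the one apart for *inv*.

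The change from 4 to 5 days differed between tumors and control discs, by a test of the difference itself, for *hh* (-1.05), *ptc* (-0.64), *smo* (-0.46), *en* (-0.91) and *inv* (-0.40; log2, limma, adjusted p = 3.96e-07 to 0.00379).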

How the results depend on the processing

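No call of a member reversed under any setting run. In the 3 main comparisons (slope, 4 days and 5 days) leaving out 1 library left 250 of 252 results of members on their side of the threshold, and the other settings 176 of 180. In the other comparisons these counts were 624 of 642 and 615 of 624. With library size alone the *ci* difference was 0.13 at 4 days and 0.12 at 5 days and neither passed. Leaving out 1 library moved the *smo* difference at 4 days between -0.25 and -0.16. Without the libraries rich in gut RNA, chosen after seeing the data, *ci* at 4 days was 0.23 and did not pass, *ptc* at 4 days was 0.57 and passed, 11 other pathway genes rather than 18 were lower at 4 days, and 1812 of all genes rather than 2758 were. The replicate numbers did not pair the samples: deviations of same-numbered libraries correlated at -0.01 on average over 129 pairs, against 0.00 over 384 pairs of different numbers. With the replicate block the 4-day *hh* difference was -1.34 and the 5-day one -2.39, and of the members' calls the block moved 2, *inv* between 5 and 6 days (0.26, which then passed) and *ptc* at 14 days (0.21, which then did not). Depth limited only *kn* in young tumors, where 1 library was under 3 reads.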
